A study of Drosophila melanogaster with 12 samples.

Results

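A set of 101 known transcripts, out of 31271 known transcripts and 41081 transcripts in the whole table, had low levels in *ISWI* mutant larvae of both sexes and clear levels in control larvae. A known transcript is one that carries a FlyBase transcript identifier (FBtr). The members were chosen on the measured values themselves. The lowest of the 6 control libraries had to reach a normalized count of 10, the mean of the control libraries had to stay under 5000, the lowest control library had to be at least 3 times the highest of the 6 mutant libraries, and the highest mutant library had to be above 3. The lower limit in the controls left 18344 of the known transcripts, the limit on the control mean left 16594, the 3-fold limit left 120, and the limit on the highest mutant library left 101. The fall in the mutants is therefore the rule and not a result, and it is described here without a test. The same limits with the genotypes exchanged selected 253 known transcripts.

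The RNA came from whole *Drosophila melanogaster* larvae of the third instar, with about 20 larvae in each library. The 4 groups were *ISWI* mutant females, control females, *ISWI* mutant males and control males, with 3 libraries each. The mutants carried the point mutations ISWI1 and ISWI2 over each other, came from yw stocks that keep each mutation over a GFP-marked CyO balancer, and were picked by the absence of GFP. The controls were wild type (+/+), so a difference of strain background changes together with the *ISWI* genotype and cannot be told apart from it. All stocks were kept at 25 °C according to the labels, which gave no age beyond the stage. Nothing in the labels says how separate the 3 libraries of a group are beyond different larvae, and p-values measure only the spread between these libraries.

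ISWI is the ATPase subunit of several chromatin remodeling complexes, among them NURF, ACF and CHRAC. These complexes use ATP to slide nucleosomes along the DNA and to space them evenly, and they act on both activation and repression of transcription. In flies ISWI is known for its role in keeping the polytene X chromosome of males compact. A gene usually makes several transcripts, from different promoters or by different splicing, and StringTie distributes the reads of a locus among them. A low value for 1 transcript is thus a statement on that transcript and not on its gene.

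The values are normalized counts, that is, the reads of a transcript divided by 1 size factor per library. The size factors lay between 0.798 and 1.59, and the recovered depth was between 89290368 and 119202607 reads per library. The share of all transcripts at 0 ranged from 8.46% to 21.0% over the mutant libraries and from 9.32% to 19.4% over the control libraries. It was lowest in replicate 2 of the *ISWI* males and in replicate 2 of the control males. The table holds no gene names, and the annotation used here did not link the members' identifiers to genes, chromosomes or transcript classes. The members are therefore given by identifier only, their functions are not described, and no sequence is printed. The level of *ISWI* itself and the marker genes of larval tissues were not analyzed here for the same reason.

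The 101 members together made up a normalized count of 9243 ± 1867 in *ISWI* females, against 131502 ± 13017 in control females (SD, n = 3 each). The sum was 8502 ± 2566 in *ISWI* males and 123817 ± 3338 in control males (SD, n = 3 each). In single libraries the sum was 8713, 7697 and 11317 in *ISWI* females, against 128239, 145841 and 120428 in control females. It was 8171, 11217 and 6118 in *ISWI* males, against 120769, 127384 and 123297 in control males. The members took between 0.00560% and 0.0146% of the reads of a mutant library and between 0.109% and 0.183% of those of a control library. In whole larvae, fewer cells that make a transcript and less of it per cell cannot be told apart.

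**Figure D1:**
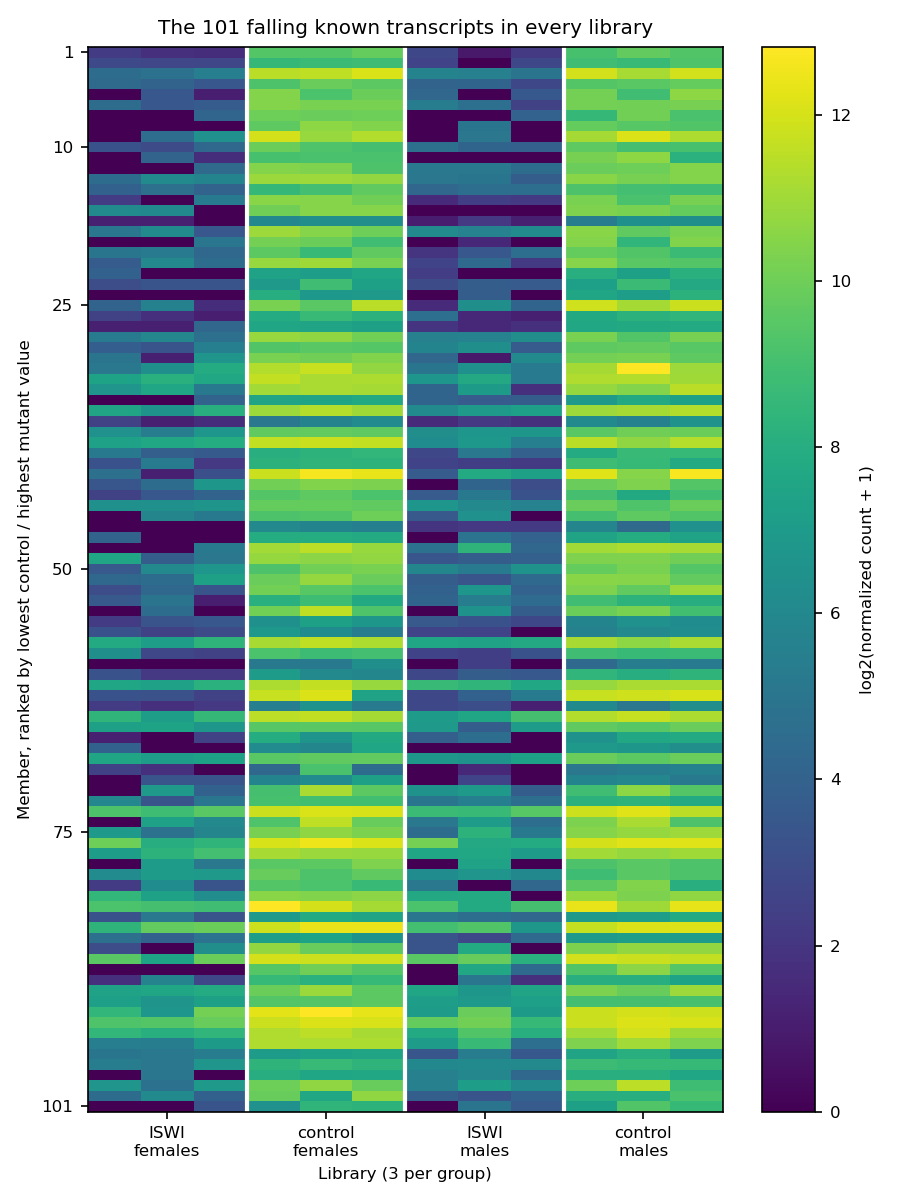
Level of each of the 101 members in every library, as log2(normalized count + 1). Columns are the 3 libraries of *ISWI* females, control females, *ISWI* males and control males, and rows are members ranked by the ratio of the lowest control to the highest mutant library, from 92.3 at the top to 3.04 at the bottom. The mutant columns are darker than the control columns in every row, as the rule requires, and they are also more uneven.

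The limma test over the whole table called 98 of the 101 members lower in *ISWI* females and 97 lower in *ISWI* males at an adjusted p under 0.05, and called none higher. Of all 35284 transcripts tested, 5.68% were called lower in females and 9.12% in males. All 101 members passed the filter of that test, which asked for a value of 10 or more in 3 libraries or more. Since the rule used the same contrast, nothing is read from these calls.

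The rule bounds the level left in the mutants from above, but it does not set how far below that bound each member lay. It also left out transcripts with no mutant library above 3, so the following shares only describe the members. The level left in *ISWI* females, as the mean of the mutant libraries in percent of the mean of the control libraries, had a median of 4.40% over the members, with the middle 50% of members between 1.41% and 8.20%, and a highest value of 22.2%. In males the median was 4.77%, with the middle 50% of members between 1.87% and 9.0% and a highest value of 26.0%. Under 1% was left of 15 members in females and 14 in males, and of 4 members in both sexes. At least 10% was left of 19 members in females and 23 in males, and of 15 members in both. The level left was lower in females for 52 members and lower in males for 49.

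**Figure D2:**
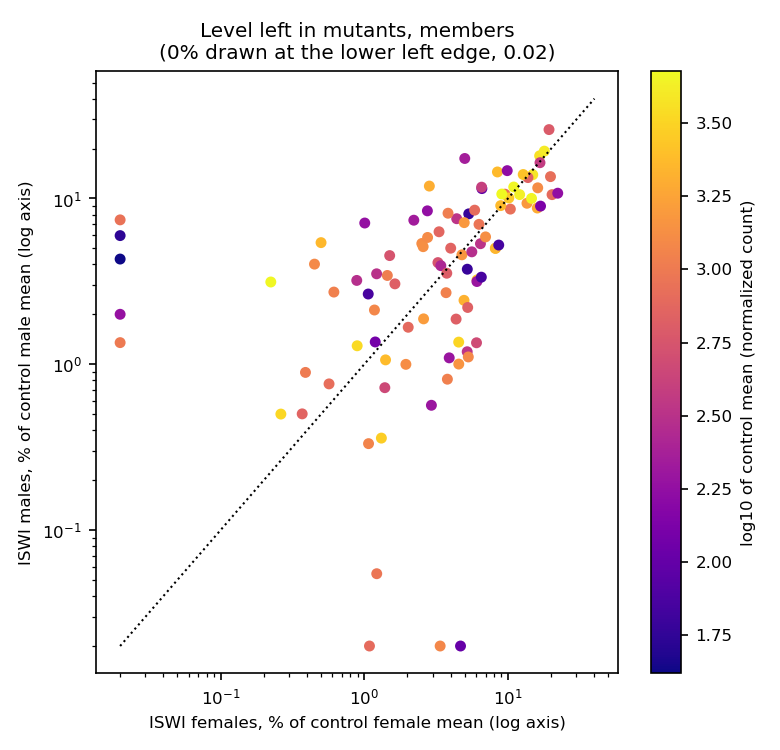
Level left of each member in *ISWI* females (horizontal) and *ISWI* males (vertical), in percent of the control mean of the same sex, both on log axes, with the mean control level as color. Members with 0% left are drawn at 0.02, and the dotted line marks equal percentages. The members scatter to both sides of the line, and the points at the upper right, with 10% or more left in both sexes, include 6 of the 10 members with the highest control means.

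The control levels of the members covered a wide range. The mean of the 6 control libraries lay between 41.5 and 4763 with a median of 876. It was under 100 for 8 members, from 100 to under 1000 for 47 members and at least 1000 for 46 members. The mean of the 6 mutant libraries lay between 0.697 and 760 with a median of 27.2.

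The lowest control library was at least 10 times the highest mutant library in 21 members. The median of this ratio was 5.61. The widest gap was that of FBtr0077575, with normalized counts of 3.65, 2.29 and 2.24 in *ISWI* females and 666, 665 and 881 in control females. In *ISWI* males it had 5.92, 0.836 and 3.54, against 547, 853 and 649 in control males. Its lowest control library was 92.3 times its highest mutant library. Its *ISWI* female libraries held at most 3 reads each, so that it was at least 202-fold lower in *ISWI* females than in control females, set against 3 reads in 1 library.

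FBtr0331963 followed, with a ratio of 61.2. It had 6.08, 5.74 and 5.61 in *ISWI* females and 372, 427 and 454 in control females. In *ISWI* males it had 4.94, 0 and 5.89, against 468, 401 and 629 in control males. It thus kept a few reads in 5 of the 6 mutant libraries, at a level that hardly differed among the *ISWI* females.

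FBtr0290122, with a ratio of 43.0, was the only member among both the 10 widest gaps and the 10 highest control means. It had 21.9, 26.4 and 43.7 in *ISWI* females and 2872, 3031 and 4398 in control females. In *ISWI* males it had 52.3, 47.6 and 29.5, against 3883, 2253 and 3871 in control males. The level left was 0.893% in females and 1.29% in males, and no mutant library was at 0.

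The other 7 of the 10 widest gaps were FBtr0078471, FBtr0071560, FBtr0087886, FBtr0077605, FBtr0079890, FBtr0347242 and FBtr0072090, with ratios from 28.8 down to 20.3. Transcripts read in all mutant libraries and transcripts at 0 in most of them both stood among these. FBtr0087886 was read in every mutant library, with 21.9, 10.3 and 12.3 in *ISWI* females against 1367, 1218 and 1197 in control females, and 42.5, 25.1 and 4.71 in *ISWI* males against 1144, 1076 and 1179 in control males. FBtr0079890 was at 0 in 5 of the 6 mutant libraries. It had 0, 0 and 0 in *ISWI* females, against 796, 1605 and 1331 in control females, and 0, 30.1 and 0 in *ISWI* males, against 883, 707 and 637 in control males. Its level was at least 341-fold lower in *ISWI* females than in control females, set against 3 reads in 1 library.

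**Figure D3:**
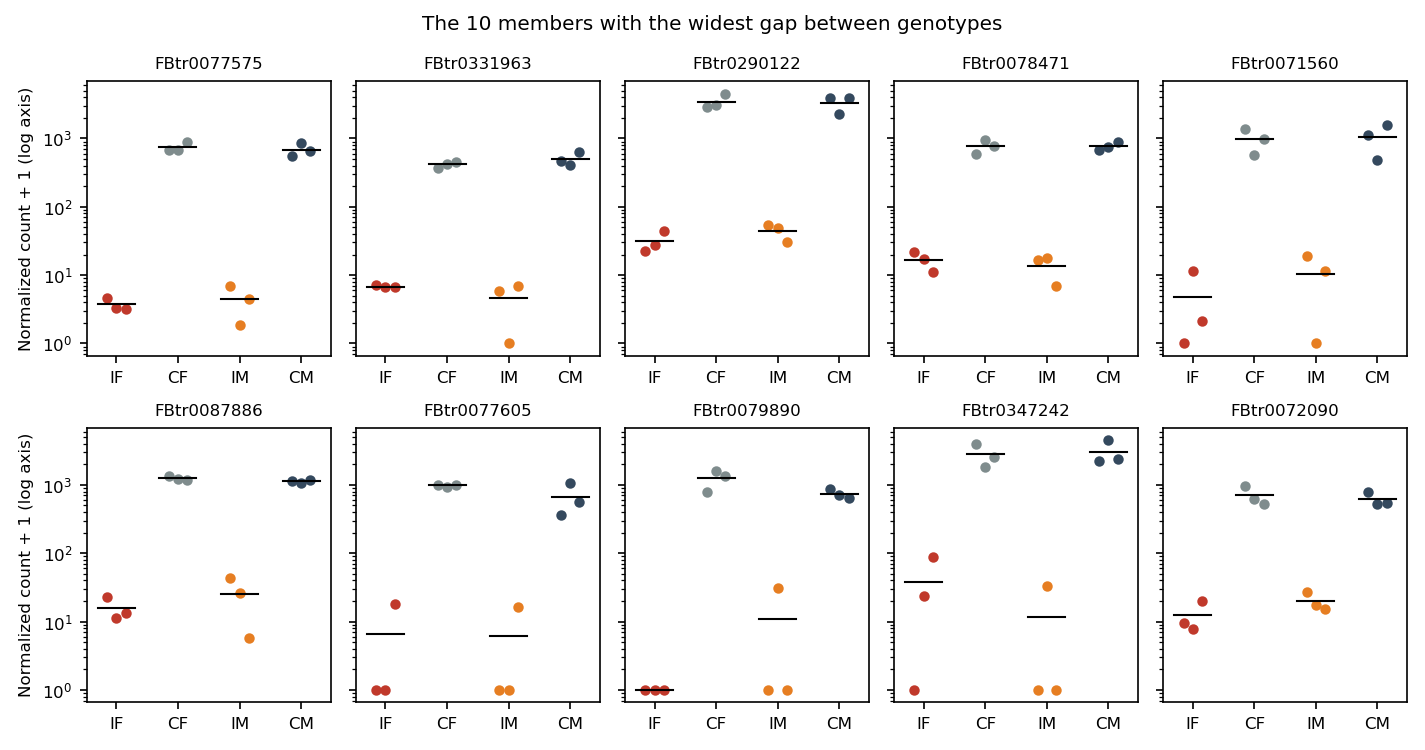
Normalized count + 1 on a log axis in every library for the 10 members with the widest gap, with IF for *ISWI* females, CF for control females, IM for *ISWI* males and CM for control males. Points are libraries and bars are group means (n = 3). The mutant points of FBtr0290122 lie between 21.9 and 52.3, whereas those of FBtr0347242 and FBtr0077605 include libraries at 0 and others above 10.

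Among the 10 members with the highest control means, larger amounts were left. FBtr0334870 had the highest control mean, 4763. It had 352, 106 and 1109 in *ISWI* females against 4986, 7083 and 5220 in control females, and 132, 941 and 127 in *ISWI* males against 3579, 4040 and 3669 in control males. As a ratio of the highest to the lowest library, its mutant libraries differed from each other by more than its control libraries did. FBtr0112447 was steadier, with 622, 661 and 912 in *ISWI* females against 3535, 4559 and 4153 in control females. In males it had 886, 1097 and 383 in mutants against 3581, 4516 and 4160 in controls, and 17.9% of its level was left in females and 19.3% in males.

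Of these 10 members, FBtr0086236, FBtr0084435, FBtr0089419, FBtr0084449 and FBtr0100153 also kept between 10% and 18.1% in each sex. The remaining 3 kept much less. FBtr0290122 is described above, and FBtr0073059 kept 0.224% in females and 3.14% in males. FBtr0086892 had 8.51, 8.03 and 4.49 in *ISWI* females against 3376, 4455 and 167 in control females. In males it had 5.92, 15 and 36.5 in mutants against 3447, 3775 and 4254 in controls, so replicate 3 of the control females was far below the other 5 control libraries for this transcript.

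At the limit of the rule, the 3 members just inside were FBtr0088799, FBtr0087438 and FBtr0332167, where the lowest control library was 3.04, 3.06 and 3.08 times the highest mutant library. FBtr0073784, FBtr0089082 and FBtr0306554 lay just outside, with 2.99 each. FBtr0088799 had 0, 0 and 9.0 in *ISWI* females against 89.1, 336 and 311 in control females, and 0, 29.3 and 11.8 in *ISWI* males against 154, 634 and 380 in control males. FBtr0073784 had 182, 173 and 286 in *ISWI* females against 1115, 1427 and 990 in control females, and 83.9, 282 and 197 in *ISWI* males against 979, 1731 and 856 in control males. In both transcripts, every control library was above every mutant library.

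A large part of the members had few or no reads assigned in at least 1 mutant library. At most 3 reads were found in at least 1 mutant library for 51 of the 101 members, and in 5 of the 6 mutant libraries for 11 members. Exactly 0 reads were found in at least 1 mutant library for 36 members. All 3 *ISWI* female libraries held at most 3 reads for 8 members, which were at least 13.9-fold to at least 341-fold lower than in control females, set against 3 reads in 1 library. All 3 *ISWI* male libraries did so for 6 members, which were at least 11.6-fold to at least 316-fold lower than in control males. No member met this in all 6 mutant libraries. Without the limit on the highest mutant value, a normalized count above 3, the rule selected 120 transcripts.

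The mutant libraries of 1 group differed more for the members than for other transcripts. The standard deviation of log2(normalized count + 1) among 3 libraries had a median over the members of 1.06 in *ISWI* females and 0.33 in control females. It was 0.86 in *ISWI* males and 0.36 in control males. Over all known transcripts tested, the medians were 0.57 in *ISWI* females, 0.44 in control females, 0.69 in *ISWI* males and 0.54 in control males. The rule compares the lowest control with the highest mutant library and so favors control libraries that lie close together, and low counts vary more on a log scale, so these medians are given as a description.

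In 15 members, 1 mutant library was at 0 while another reached 50 or more. FBtr0340443 had 68.1, 63.1 and 0 in *ISWI* females against 1033, 1424 and 1429 in control females, and 0, 0 and 0 in *ISWI* males against 1277, 1188 and 888 in control males. FBtr0086785 had 0, 0 and 0 in *ISWI* females against 688, 1056 and 659 in control females, and 0, 196 and 20 in *ISWI* males against 646, 1557 and 698 in control males. Such a transcript was thus assigned reads in some mutant libraries and none in others, while every control library had reads assigned to it. StringTie assigns the reads of a locus to its transcripts, so a 0 need not mean that the locus was unread.

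Replicate 2 of the *ISWI* males most often gave the highest of the 6 mutant values, in 29 of the 101 members, and replicate 3 of the *ISWI* males least often, in 6. Replicate 2 of the *ISWI* males was also the library with the smallest share of transcripts at 0 and the smallest number of members with at most 3 reads, 14, against 23 to 30 in the other 5 mutant libraries. Without this library the rule selected 143 transcripts, 97 of them among the 101. Without each of the other 11 libraries it selected between 105 and 122. The part of depth or library composition in these numbers was not tested.

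The comparison of males with females within a genotype was not used as a contrast by the rule, although the rule used the same 12 libraries. Its limit on the highest mutant library bears on the values compared, so the counts for the mutants are not independent of the rule. Among *ISWI* mutants, limma called 0 of the 101 members different between males and females, where 3.21% of all tested transcripts were called and 1.05% of the 16594 known transcripts within the same limits on the control values. The edgeR test also called 0. DESeq2 called 5 of the 96 members to which it gave an adjusted p. The shares above are those of limma, and the DESeq2 share over all transcripts is not given here. At an unadjusted p under 0.05 there were 14 members, or 13.9%, beside 12% of all tested transcripts and 8.78% of the 16493 other known transcripts within the same limits. The median difference over the members was -0.00 on the log2 scale, with 50 members higher and 51 lower in males, and the median standard error of 0.73 was wide. A difference above 1 in either direction was found for 45 members and above 2 for 12, so the missing calls do not show that the mutant sexes have the same levels.

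FBtr0304644 had the smallest adjusted p in this comparison. It had 74.1, 115 and 46.0 in *ISWI* males, against 159, 198 and 244 in *ISWI* females, without overlap. The log2 difference was -1.42 (SE 0.35, adjusted p = 0.062 by limma). Over the alternatives its adjusted p ran between 0.0041 and 0.23, and it passed with DESeq2 and, at 0.027, without replicate 2 of the *ISWI* males. In the controls the same transcript had 2893, 1657 and 2716 in males and 3182, 3489 and 3205 in females, and its log2 difference was -0.48 (SE 0.35).

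The widest differences rested on libraries at 0. FBtr0070490 had the widest, with 26.7, 318 and 17.7 in *ISWI* males against 0, 0 and 34.8 in *ISWI* females. Its log2 difference was 4.06 (SE 1.38, adjusted p = 0.22 by limma), and its adjusted p was 0.013 by limma without replicate 3 of the *ISWI* females. FBtr0084858 had 34.6, 33.4 and 22.4 in *ISWI* males against 0, 0 and 20.2 in *ISWI* females, with a log2 difference of 3.47 (SE 1.02, adjusted p = 0.13 by limma). Without replicate 3 of the *ISWI* females its adjusted p was 0.00069. For FBtr0340443, with the values given above, the log2 difference was -4.04 (SE 1.3, adjusted p = 0.20 by limma), and the adjusted p was 0.00014 without the same library. DESeq2 called FBtr0340443 with all libraries included (log2 difference -7.91, adjusted p = 6.8e-05 by DESeq2) and did not call FBtr0084858.

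In the controls, limma called 0 of the 101 members different between males and females, where 10% of all tested transcripts were called and 4.06% of the known transcripts within the same limits on the control values. The edgeR test called 0 as well and DESeq2 called 1 of 96 members, again without its own share over all transcripts. Only 1 member, 0.99%, had an unadjusted p under 0.05, beside 10.3% of the other known transcripts within those limits. The median log2 difference was -0.06, with 41 members higher and 60 lower in males, and 4 members differed by more than 1. As the rule favors even control libraries, this low share is not independent of it. The fit also gave all 4 groups 1 shared spread per transcript, so the spread of the mutant libraries entered the error in the controls. The median standard error was 0.73 for the members, beside 0.50 for the other known transcripts within those limits. The test thus had less power for the members, and the low share does not show even levels.

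That member was FBtr0089615. It had 349, 253 and 318 in control males and 129, 65.2 and 57.7 in control females, without overlap, and a log2 difference of 1.94 (SE 0.56, adjusted p = 0.058 by limma). Its adjusted p ran between 0.00061 and 0.20 over the alternatives, and it passed with DESeq2, with a pseudocount of 10 and, at 0.049, without replicate 1 of the *ISWI* females. In the mutants it had 5.92, 12.5 and 10.6 in males and 8.51, 3.44 and 3.36 in females, where the groups overlapped and the log2 difference was 0.85 (SE 0.56).

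Whether the fall differed between the sexes was tested as the interaction of sex and genotype. The rule asked for the 3-fold gap over both sexes, so a transcript that fell in only 1 sex could not be a member. The number of calls is therefore not independent of the rule. Limma called 0 of the 101 members, where 0.799% of all tested transcripts and 0.301% of the known transcripts within the same control limits were called. The edgeR test called 0 and DESeq2 called 2 of 96 members, FBtr0070598 and FBtr0340443, again without its own share over all transcripts. At an unadjusted p under 0.05 there were 3 members, or 2.97%, beside 6.47% of the 16493 other known transcripts within the same limits. This low share is not independent of the rule either. The smallest adjusted p among the members was 0.35 by limma. The median interaction over the members was -0.01 on the log2 scale. The median standard error was 0.70 for the other known transcripts within the same limits and 1.03 for the members. A difference of 1 on the log2 scale is thus within the error of a typical member.

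**Figure D4:**
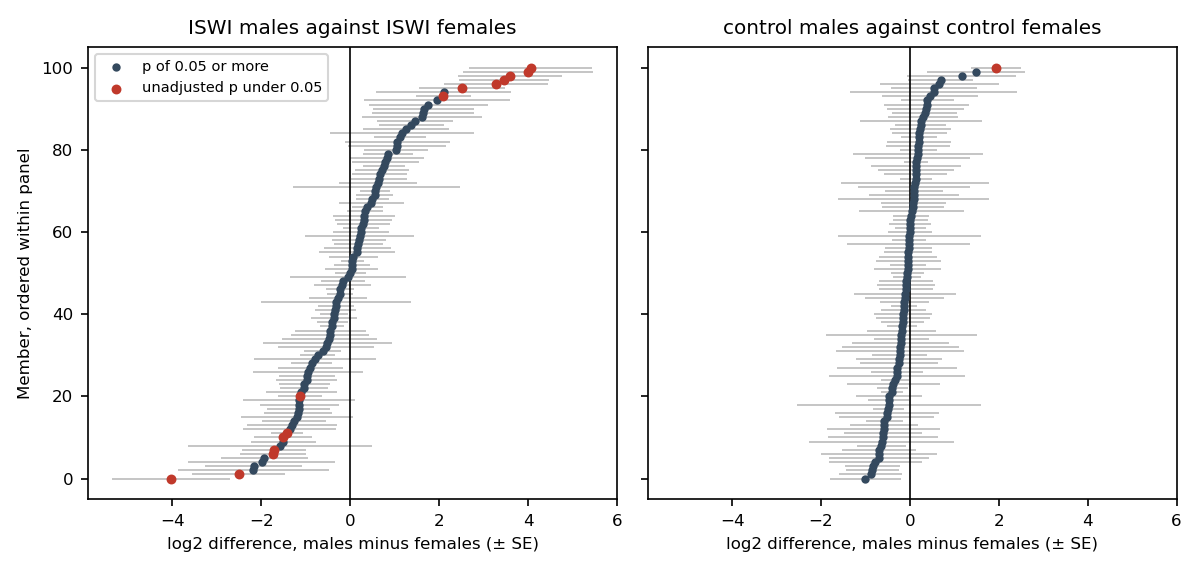
Difference between males and females for each of the 101 members on the log2(normalized count + 1) scale, with its standard error, in *ISWI* mutants (left) and in controls (right), ordered within each panel. Red points have an unadjusted p under 0.05, 14 in the mutants and 1 in the controls, and none passed the adjusted threshold. The points spread from -4.04 to 4.06 in the mutants and from -1.0 to 1.94 in the controls.

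Transcripts with neighboring FBtr numbers are often entered into the annotation together, so the identifiers next to those of the members were examined. This was decided after the values had been seen, and no source used here says which of these transcripts share a gene. Of the 101 members, 95 had at least 1 identifier in the table that differs by 1, and 9 members formed 5 such pairs with each other. The largest run was FBtr0077605, FBtr0077606 and FBtr0077607. FBtr0077607 had 3.65, 0 and 39.2 in *ISWI* females against 1493, 1446 and 1065 in control females, and 1.97, 4.18 and 3.54 in *ISWI* males against 1208, 554 and 1153 in control males. FBtr0077606 had 59.5, 9.18 and 31.4 in *ISWI* females against 543, 493 and 491 in control females, and 30.6, 46.0 and 23.6 in *ISWI* males against 304, 325 and 227 in control males. The other pairs were FBtr0082095 with FBtr0082096, FBtr0302998 with FBtr0302999, and FBtr0304643 with FBtr0304644.

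Beside the members stood 152 adjacent transcripts that are not members, and 138 of them were tested. In *ISWI* mutants of both sexes, 8 of the 138, or 5.80%, were called higher and 7, or 5.07%, were called lower by limma. Among the 27741 known transcripts tested that are not members, 3.64% were called higher in both sexes and 2.66% lower. The 9 members next to other members are not counted here, so the share called lower does not describe all neighbors. Neither sex gave a call for 94 of them. Their median log2 change was -0.04 in females and -0.26 in males, beside 0.00 and -0.16 for the known transcripts that are not members.

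The 8 neighbors that rose stood beside 7 members, and their log2 changes in females were 2.91 to 9.05. In males these changes were 3.12 to 7.70. The rule set the fall of each member, and these neighbors were picked for their calls, so opposite directions in a pair are not a result. Where transcripts share a locus, StringTie divides its reads between them, and the part of this in the values was not tested. FBtr0084857, next to the member FBtr0084858, had 2029, 959 and 1909 in *ISWI* females against 12.1, 0 and 0.900 in control females. In *ISWI* males it had 1119, 1007 and 2523, against 11.3, 0.600 and 15 in control males. The log2 change was 9.05 in females (SE 1.07, adjusted p = 0.00045 by limma) and 7.70 in males (SE 1.07, adjusted p = 0.0012 by limma). The member itself had 0, 0 and 20.2 in *ISWI* females against 1403, 1276 and 605 in control females, so both transcripts exchanged places between the genotypes. Their sum in the mutants was 149% of that in controls in females and 142% in males.

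FBtr0078470 and its neighbor, the member FBtr0078471, also exchanged places between the genotypes. FBtr0078470 had 639, 608 and 497 in *ISWI* females against 81.0, 50 and 83.4 in control females, and 726, 1025 and 882 in *ISWI* males against 47.8, 191 and 65.2 in control males. FBtr0078471 had 20.7, 16.1 and 10.1 in *ISWI* females against 596, 939 and 779 in control females, and 15.8, 16.7 and 5.89 in *ISWI* males against 665, 750 and 881 in control males. The sum of both was 597 ± 80.0 in *ISWI* females and 843 ± 157 in control females, and 890 ± 150 in *ISWI* males and 867 ± 133 in control males (SD, n = 3 each). The mutant sum was thus 70.8% of the control sum in females and 103% in males. How StringTie divided reads between both transcripts was not tested.

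The member FBtr0071560 had a rising neighbor on each side. FBtr0071561 had 965, 447 and 729 in *ISWI* females against 27.5, 10.7 and 55.9 in control females, and 714, 1688 and 634 in *ISWI* males against 29.1, 32.1 and 40.1 in control males. FBtr0071559 varied more among the mutants, with 51.0, 153 and 1477 in *ISWI* females and 1324, 631 and 50.7 in *ISWI* males, and no control library above 3.76. The other rising neighbors were FBtr0300862, FBtr0084000, FBtr0082081 and FBtr0089614. FBtr0300862 reached 2378 to 4906 in the mutants against 41.2 to 541 in the controls, and its sum with the member FBtr0300861 was 321% of the control sum in females and 211% in males, so here the pair rose as a whole. FBtr0089614 had at most 3 reads in every control library and was at least 5.25-fold higher in *ISWI* females and at least 3.89-fold higher in *ISWI* males, set against 3 reads in 1 library. The call of FBtr0089614 in males was lost with edgeR and DESeq2 and without replicate 1 or 2 of the control males or replicate 1 of the *ISWI* males, with an adjusted p of up to 0.15 by edgeR. That of FBtr0082081 in females was lost without any 1 of the control females and without replicate 2 or 3 of the *ISWI* females, with an adjusted p of up to 0.081 by limma.

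**Figure D5:**
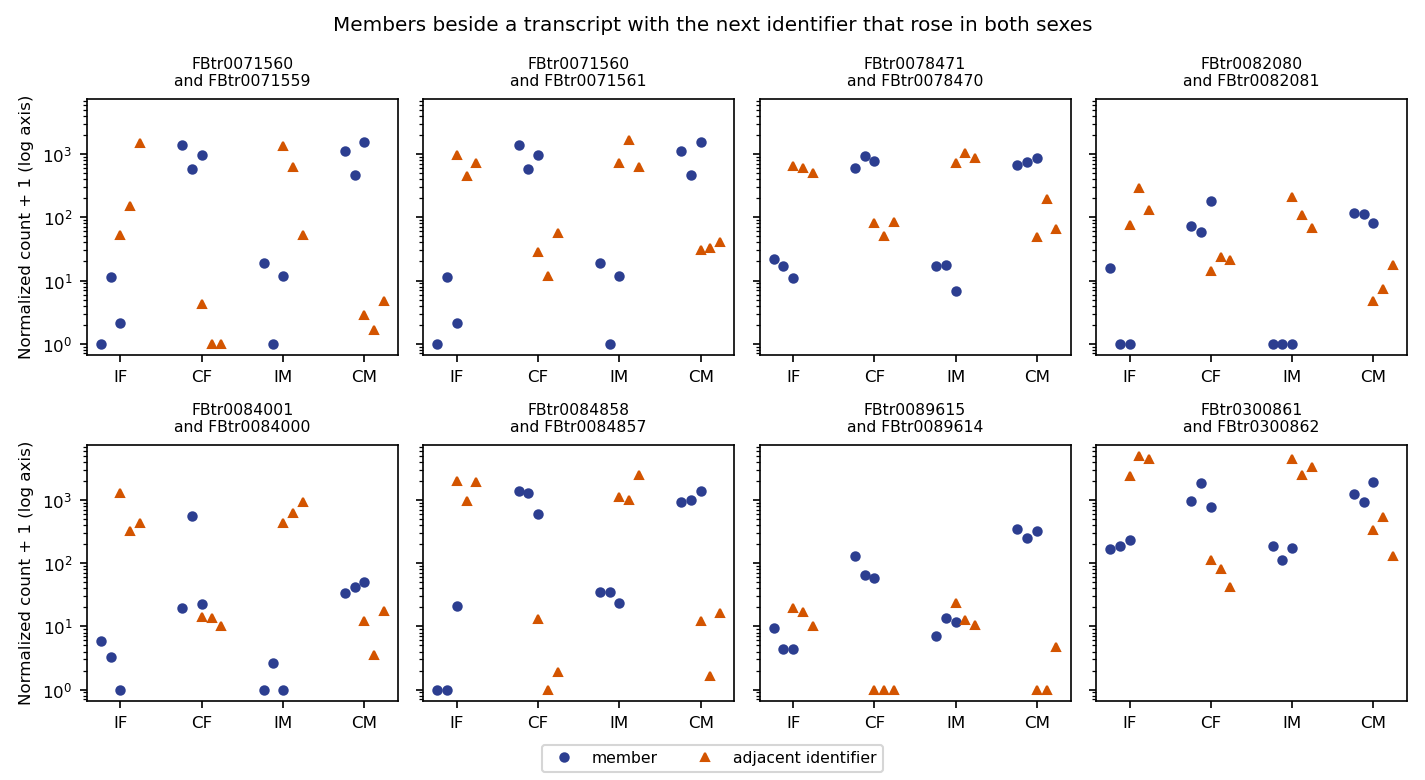
Normalized count + 1 on a log axis in every library for the 7 members with a rising neighbor (circles) and the neighbor with the adjacent identifier (triangles), 8 pairs in all, with IF for *ISWI* females, CF for control females, IM for *ISWI* males and CM for control males. In the controls the circles lie above the triangles of the same group, and in the mutants below them, with an overlap only in the *ISWI* males of FBtr0089615 and FBtr0089614.

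The 7 neighbors that fell in both sexes included transcripts that the upper limit of the rule had kept out. FBtr0089418, next to the member FBtr0089419, had 318, 196 and 255 in *ISWI* females against 7454, 7239 and 5325 in control females, and 219, 101 and 375 in *ISWI* males against 6963, 4467 and 7241 in control males. FBtr0303853, next to the member FBtr0303854, had 20.7, 258 and 105 in *ISWI* females against 4613, 7383 and 9517 in control females, and 0, 262 and 1.20 in *ISWI* males against 5831, 10926 and 5617 in control males. Both fell by more than the 3-fold limit, and their control means were above 5000. The call of FBtr0303853 in females, with an adjusted p of 0.039 by limma, was lost with edgeR, with a pseudocount of 0.5 and without any 1 of the control libraries or of the *ISWI* females, with an adjusted p of up to 0.13. The sum of FBtr0089418 and its member was 7.11% of the control sum in females and 6.48% in males. For FBtr0303853 and its member it was 1.97% in females and 1.29% in males, so in these pairs both transcripts fell. Other limits of the rule kept out other falling neighbors. FBtr0082094 was at 0 in every mutant library, and FBtr0083408 had 191 to 534 in the mutants against 827 to 1547 in the controls. Over all 7 falling neighbors, the mutant sum with the member was 1.97% to 38.2% of the control sum in females. In males it was 0.984% to 30.1%.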

How the data were processed

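The deposited values are a signal: read counts per transcript that the authors normalized in DESeq2 (version 1.32.0) after Trimmomatic (0.39), HISAT2 (2.2.1, genome BDGP6), StringTie (2.1.5) and gffcompare (0.11.2), from rRNA-depleted paired-end libraries. Multiplied by the size factor, 100% of values up to 1000 reads came out whole (tolerance 0.01). The 12 libraries were grouped by their labels, and none was left out.

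The members and lists were chosen with earlier results of these data known. Named are the 10 members with the widest gap, the 10 with the highest control mean, the 3 on each side of the 3-fold limit and members called for sex. Members beyond this rule, and all adjacent identifiers, were chosen after their values were seen. Tests were limma (3.58.1, R 4.3.3) on log2(normalized count + 1), with 1 mean per group, an intensity trend and Benjamini-Hochberg adjustment over 35284 transcripts with a value of 10 or more in 3 libraries, so a fold change of a low transcript is understated. edgeR (4.0.16, quasi-likelihood) and DESeq2 (1.42.0) ran on the recovered reads as alternatives. Lower bounds of a fold use 3 reads, cover counting error only and assume independent reads. They do not cover the assignment of reads to transcripts by StringTie. Planned analyses by gene (other transcripts of the members' genes, listed genes, tissue markers) could not be run with the annotation used here.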

Additional observations from a re-analysis of the deposited data

How the results depend on the processing

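The number of members was 198 with a 2-fold and 65 with a 4-fold limit in place of 3-fold, 99 with a control minimum of 20, 120 without the limit on the highest mutant value, and from 105 to 143 without each library in turn. The count of members called between the sexes in *ISWI* mutants, 0 by limma, was 1 with a pseudocount of 0.5 (FBtr0273406), 5 with DESeq2 and from 0 to 4 without each library in turn (4 without replicate 3 of the *ISWI* females, 2 without replicate 1 of the *ISWI* males, 1 without replicate 2 of either). In the controls it was 1 with a pseudocount of 10, 1 with DESeq2 and from 0 to 1 without each library (1 without replicate 1 of the *ISWI* females), and for the interaction it was 2 with DESeq2 and from 0 to 3 without each library (3 without replicate 3 and 1 without replicate 2 of the *ISWI* females). Nothing was called in these 3 comparisons with edgeR, TMM normalization, no filter, or at least 10 in every library, where only 33 members were tested. The count of adjacent transcripts higher in both sexes, 8 by limma, was 3 with at least 10 in every library and 13 with DESeq2. The count of those lower in both sexes, 7 by limma, was 4 with at least 10 in every library, 16 with DESeq2 and from 4 to 9 without each library, with 4 without replicate 1 of the control females. The cause of the larger DESeq2 counts was not tested, and they stand without the DESeq2 shares over all transcripts.

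The replicate numbers were not used to pair the libraries, and whether same-numbered libraries share a batch was not tested. Over all tested transcripts, the mean correlation of deviations between same-numbered libraries was 0.0042 for the genotypes in females, 0.090 in males, 0.018 for the sexes in controls and -0.0045 in mutants. Between libraries of different number it was -0.0021, -0.045, -0.0088 and 0.0022 in the same order. Over the members, these means ran from 0.027 to 0.16 for same numbers, with the sexes in controls highest, and from -0.074 to -0.011 for different numbers. The deviations of a group sum to 0 for each transcript. The means for different numbers therefore largely follow from those for same numbers and are no separate reference. With the replicate number as a block, 0 members were called for sex in mutants, 0 for sex in controls and 0 for the interaction. Single results were followed for the 8 rising and 7 falling neighbors in each sex, and for FBtr0304644 and FBtr0089615 in 1 sex comparison each. Of 621 values under the alternatives, 578 kept their status, 38 lost a call, 5 gained one and 0 changed direction. The neighbors were picked for their calls, and FBtr0304644 and FBtr0089615 had no limma call to lose. The planned analysis of other transcripts of the members' genes was not run. Many members were assigned 0 to 3 reads in at least 1 mutant library, which limits any comparison between the mutant sexes.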
